A study of Mus musculus with 8 samples.

Results

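The 10 genes described here encode surface and adhesion proteins by which mouse spermatogonia are recognised or sorted: the integrin subunits Itga6 and Itgb1, the tetraspanins Cd9 and Tspan8, the adhesion molecules Epcam, Cdh1 and Mcam, the glycolipid-anchored proteins Thy1 and Cd24a, and the adhesion receptor Adgra3. They were chosen by name as a list of such markers, and all 10 were found among the 31010 genes of the table. RNA-seq had been carried out on 8 lines of germline stem (GS) cells, the cultured form of spermatogonial stem cells, which proliferate in medium with GDNF and FGF2. Of these lines, 4 each came from control-F1 mice, born after natural mating, and from ICSI-F1 mice, whose fathers' sperm had been injected into oocytes (intracytoplasmic sperm injection). Every line was labelled WT with no treatment, carried B6 in its title, and was founded with cells of adult testes that an anti-CD9 antibody had enriched on magnetic beads. No exact age of the mice was given.

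Cd9 was therefore the antigen by which the founder cells of both groups had been selected. The labels name no mouse or litter, but the line numbers match those by which the study numbers single F1 mice, so that the lines appear to come from separate mice. Litters were not given, n counts lines, and the p-values measure the spread between lines. The titles were written in 2 forms, each with 2 lines of both groups. Control lines 29 and 37 and ICSI lines 11 and 17 had hyphenated titles (title form 1), and control lines 44 and 45 and ICSI lines 20 and 21 had titles joined by the _ sign (title form 2). What the forms stand for was not stated. The forms were also registered as separate runs of sample numbers and their read totals did not overlap, and they were treated as a possible technical batch.

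By way of background, integrin alpha 6 and integrin beta 1 pair to form a receptor for laminin, a component of the basement membrane on which spermatogonial stem cells lie. Tetraspanins such as CD9 organise integrins and other proteins within the plane of the membrane, while E-cadherin (Cdh1) and EpCAM join neighbouring cells. Antibodies to several of these proteins are used to enrich stem cells from the testis, although none of the proteins is found on stem cells alone.

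The libraries held 24699819 to 44269871 recovered reads, with 24699819 to 26653344 in title form 1 and 32350571 to 44269871 in title form 2. The values were FPKM (fragments per kilobase of gene, scaled by the authors with a divisor for each library), which can be compared between genes because they are per length. The divisor was below the recovered reads in control lines 37, 44 and 45 and ICSI line 20, and above them in the other lines. In control line 37 it was 24948818, beside 25247876 recovered reads. The divisor was therefore not the plain read total. Rescaling every library to the same sum over all genes (TPM), an alternative given below, takes the divisor out of the values. Its part in the differences between title forms was not tested beyond that alternative. The 18 germ cell and undifferentiated spermatogonia markers all averaged 1 FPKM or more. They summed to 852 to 1531 FPKM in control lines and 948 to 1320 FPKM in ICSI lines, so markers of the labelled cell type were present in every line. Fibroblast markers were also present. Of 25, 23 had a mean of at least 1 FPKM and none was at 0 in all lines. They summed to 374 to 1380 FPKM in control lines and 436 to 921 FPKM in ICSI lines. In control line 29 the fibroblast sum (1380 FPKM) was above the germ cell sum (852 FPKM), and in every other line it was below. In control line 44 the sums were 1305 and 1531 FPKM. Sums over lists of different genes do not give the share of each cell type. GS cells are grown on fibroblast feeders, and the methods describe a plating step on gelatin to take these away.

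In the GENCODE annotation of GRCm38 (mm10), all 10 were protein-coding genes. Itga6 lay on chromosome 2 (71745616 to 71858416, plus strand), Itgb1 on chromosome 8 (128685654 to 128733200, plus) and Cdh1 also on chromosome 8 (106603351 to 106670246, plus). Cd9 lay on chromosome 6 (125460266 to 125494791, minus), Epcam on chromosome 17 (87635979 to 87651129, plus) and Adgra3 on chromosome 5 (49959956 to 50059006, minus). Thy1 (44043384 to 44048579) and Mcam (44134469 to 44142727) both lay on the plus strand of chromosome 9. Cd24a (43578284 to 43584265) and Tspan8 (115816832 to 115849893) were on the plus strand of chromosome 10. Exons of 3 of the genes overlapped a gene on the opposite strand, Cd9 with Gm26728 over 218 bases (10.7% of its exonic length), Mcam with Gm10687 over 17 bases and Tspan8 with 4930422I22Rik over 4 bases. The labels and the methods name different library kits, so it is uncertain whether counting used strand, and reads from these stretches may not be separable.

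RefSeq promoters (GRCm38.p6, from 250 bases before to 50 bases after the start of the gene) were matched for 6 of the 10 genes. The 4 shown are those of Cd9, Epcam and Adgra3, which were higher together in one title form, and of Mcam, the gene with the highest level. Capitals mark the GC box, a motif bound by Sp transcription factors, searched as GGGCGG and on the other strand as CCGCCC. The windows lie at chr6:125494711-125495010 (minus strand) for Cd9, chr17:87635729-87636028 (plus) for Epcam, chr5:50058947-50059246 (minus) for Adgra3 and chr9:44134408-44134707 (plus) for Mcam.
Cd9: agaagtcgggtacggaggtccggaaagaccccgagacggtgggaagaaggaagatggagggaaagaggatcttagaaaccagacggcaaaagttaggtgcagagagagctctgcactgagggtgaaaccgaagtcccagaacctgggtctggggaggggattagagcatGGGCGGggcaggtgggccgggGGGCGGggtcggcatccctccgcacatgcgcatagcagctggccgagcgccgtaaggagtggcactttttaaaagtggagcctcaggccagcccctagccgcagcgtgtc
Epcam: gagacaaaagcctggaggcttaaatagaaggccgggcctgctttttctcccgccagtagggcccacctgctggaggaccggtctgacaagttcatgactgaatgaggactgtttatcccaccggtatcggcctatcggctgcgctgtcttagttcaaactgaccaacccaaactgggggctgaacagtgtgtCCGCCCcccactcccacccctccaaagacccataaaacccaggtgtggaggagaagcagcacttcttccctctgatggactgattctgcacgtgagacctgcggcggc
Adgra3: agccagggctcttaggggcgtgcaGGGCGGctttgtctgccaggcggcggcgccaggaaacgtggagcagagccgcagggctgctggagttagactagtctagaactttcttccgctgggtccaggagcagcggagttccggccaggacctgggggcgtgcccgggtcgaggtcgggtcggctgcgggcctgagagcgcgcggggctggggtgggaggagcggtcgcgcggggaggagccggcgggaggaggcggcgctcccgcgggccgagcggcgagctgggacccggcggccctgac
Mcam: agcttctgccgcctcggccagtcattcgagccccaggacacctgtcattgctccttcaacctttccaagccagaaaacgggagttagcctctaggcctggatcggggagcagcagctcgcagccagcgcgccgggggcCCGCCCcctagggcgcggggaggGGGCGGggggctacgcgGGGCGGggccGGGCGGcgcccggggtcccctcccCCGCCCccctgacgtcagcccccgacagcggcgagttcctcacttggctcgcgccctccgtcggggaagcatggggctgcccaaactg

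The Mcam promoter held 5 GC boxes, that of Cd9 held 2, and those of Epcam, Adgra3 and Itgb1 held 1 each. The Tspan8 promoter held 0. Thus 5 of 6 promoters had at least 1 GC box, which 35.7% of the 32851 promoters of the table also had. The GC content was 61.3% for Cd9, 57% for Epcam, 74% for Adgra3 and 72.7% for Mcam, against a median of 52.7% over all promoters. It was 67.3% for Itgb1 and, below that median, 51.7% for Tspan8. Of the other motifs searched on both strands, CACGTG (in 7.15% of promoters) was found once in Epcam, TGACGTCA (1.79%) once in Mcam, and TATAAA (13.6%) in none of the 6. The motifs were chosen after the expression values had been seen, and a match is a description of the letters only.

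The genes covered a wide range of levels in GS cells. Mcam was highest with a mean of 289 FPKM over the 8 lines, followed by Itgb1 (123 FPKM), Cd9 (89.5 FPKM) and Epcam (88.2 FPKM). Itga6 (18.0 FPKM), Tspan8 (13.4 FPKM), Adgra3 (12.7 FPKM) and Thy1 (8.31 FPKM) formed a middle range, and Cd24a (4.79 FPKM) and Cdh1 (2.75 FPKM) were lowest. Neighbours in this order were compared within each line by an exact two-sided sign-flip permutation test of log2(FPKM + 1) over all sign flips of the 8 lines, adjusted over the 9 pairs by the Benjamini-Hochberg method. Cd9 and Epcam did not differ beyond their spread (adjusted p = 0.836), nor did Tspan8 and Adgra3 (adjusted p = 0.694) or Adgra3 and Thy1 (adjusted p = 0.0603). The other 6 steps had adjusted p-values of 0.0176 to 0.0352, where the smallest unadjusted p that the test can give is 0.00781. The order was set by the means of the same lines, so the direction of each step was not independent of its test.

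The 2 chains of the laminin receptor were unequal in level. Itgb1 exceeded Itga6 in every line, with group means of 123 ± 37.5 and 17.4 ± 3.75 FPKM among control lines, and of 124 ± 28.3 and 18.5 ± 2.72 FPKM among ICSI lines (each mean ± SD, n = 4). Integrin beta 1 pairs with many alpha chains besides alpha 6. Reads behind a value ranged from 255 for Cd24a to 50697 for Mcam in a single line, so counting error was smallest for Mcam and largest for Cd24a and Cdh1.

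**Figure D1:**
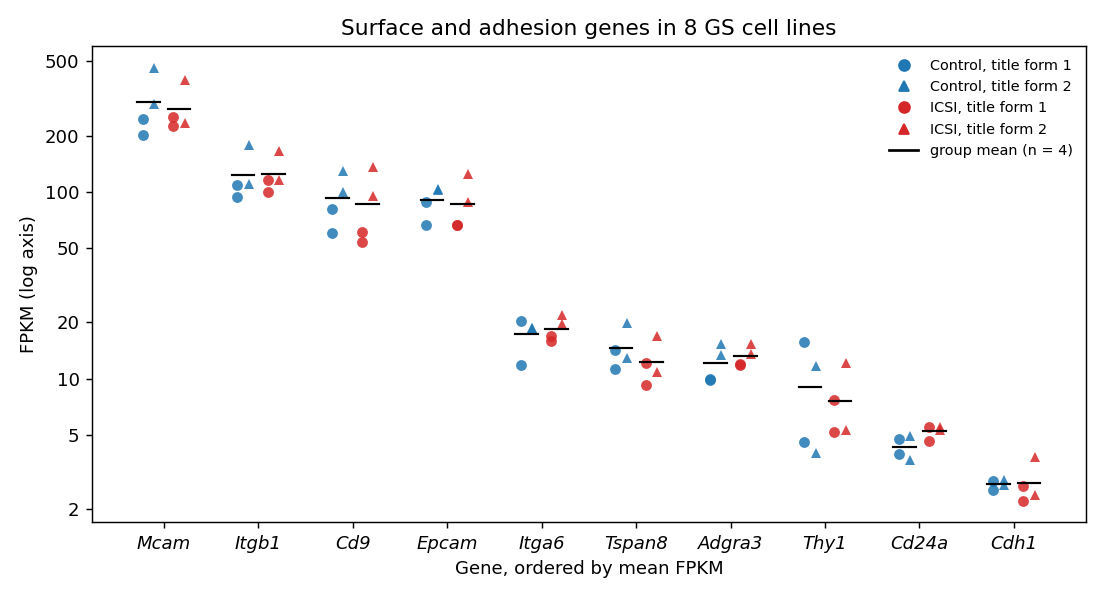
FPKM of the 10 genes (log axis, ordered by mean) in 4 control (blue) and 4 ICSI (red) GS lines; circles are title form 1, triangles title form 2, and bars the group means. Control and ICSI lines overlap for every gene, from Mcam at 202 to 462 FPKM down to Cdh1 at 2.23 to 3.79 FPKM.

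The study derived these lines to compare gene expression in the germline of ICSI-F1 and control-F1 mice, and the 10 genes were examined for that difference. No difference between the groups was detected for any of them. In limma, 0 of the 12000 genes (0%) passed an adjusted p of 0.05. An unadjusted p under 0.05 was found for 55 genes (0.458%), and no member was among them. With title form as a covariate in limma, 0 genes passed and 140 (1.17%) had an unadjusted p under 0.05, again without a member. Both shares lay below the proportion of 0.05 that such a threshold gives where nothing differs. The first fit and the permutation tests below left title form differences in the spread, so they can miss small ICSI differences. The fit with title form as covariate also had a share below 0.05, for a reason that was not tested, and can miss them as well. The ranges of ICSI and control lines overlapped for all 10 genes, while over all genes tested 53 (0.442%) did not overlap. The differences of the members in log2(FPKM + 1), ICSI minus control, had a median of -0.047 with 4 of 10 above 0, beside a median of -0.013 for all genes tested.

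The integrin subunits had nearly the same means in both groups. Itga6 was at 11.9, 20.3, 18.6 and 18.7 FPKM in control lines 29, 37, 44 and 45 and at 15.8, 16.9, 21.9 and 19.5 FPKM in ICSI lines 11, 17, 20 and 21, the order of lines used from here on. Control line 29 was lowest, and the difference was 0.10 (95% interval -0.29 to 0.49; exact two-sided permutation p = 0.714 over 70 assignments). Itgb1 was at 108, 94.1, 178 and 111 FPKM in control lines and 99.6, 116, 165 and 115 FPKM in ICSI lines. Control line 44 and ICSI line 20 stood above the other lines of their group, and the difference was 0.033 (-0.46 to 0.52, exact permutation p = 0.857).

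Cd9, the sorting antigen, was at 81.4, 59.9, 129 and 99.9 FPKM in control lines and 54.1, 60.7, 136 and 95.5 FPKM in ICSI lines. Within both groups the lines of title form 2 were the higher ones, and the difference between groups was -0.14 (-0.84 to 0.57, exact permutation p = 0.771). Tspan8, a second tetraspanin that has been used to sort stem cell-enriched spermatogonia, was at 11.3, 14.3, 19.8 and 13.0 FPKM in control lines and 9.25, 12.1, 17.0 and 10.9 FPKM in ICSI lines. Its means of 14.6 ± 3.69 FPKM (control) and 12.3 ± 3.34 FPKM (ICSI; SD, n = 4) gave a difference of -0.23 (-0.70 to 0.23, exact permutation p = 0.343).

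Epcam, which is expressed along the spermatogonial lineage, was at 66.8, 87.9, 104 and 102 FPKM in control lines and 66.4, 66.5, 124 and 88.4 FPKM in ICSI lines. ICSI line 20 had the highest value of all lines, and the difference was -0.087 (-0.58 to 0.41, exact permutation p = 0.743). Cdh1, the E-cadherin of undifferentiated spermatogonia, was at 2.82, 2.55, 2.88 and 2.69 FPKM in control lines and 2.23, 2.66, 3.79 and 2.38 FPKM in ICSI lines. The control lines lay within the range of the ICSI lines, and the difference was -0.0062 (-0.33 to 0.32, exact permutation p = 0.971). Mcam, an immunoglobulin superfamily adhesion molecule, was at 202, 244, 462 and 296 FPKM in control lines and 225, 252, 397 and 234 FPKM in ICSI lines. Control line 44 and ICSI line 20 were again highest, with a difference of -0.089 (-0.69 to 0.52, exact permutation p = 0.714).

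Adgra3 (also called Gpr125), an adhesion G protein-coupled receptor of spermatogonial progenitors, was at 9.90, 9.97, 13.5 and 15.4 FPKM in control lines and 11.9, 11.9, 15.3 and 13.6 FPKM in ICSI lines. The difference was 0.12 (-0.24 to 0.47, exact permutation p = 0.486). Thy1 (CD90), used to enrich stem cells but also a surface protein of fibroblasts, was at 15.8, 4.56, 11.8 and 3.99 FPKM in control lines and 5.20, 7.73, 12.2 and 5.30 FPKM in ICSI lines. Control lines held both the highest and the lowest value, and the difference of -0.099 had the widest interval of the 10 genes (-1.02 to 0.83, exact permutation p = 0.857). Cd24a, a small surface glycoprotein found on many cell types, was at 4.76, 3.96, 4.91 and 3.67 FPKM in control lines and 4.66, 5.50, 5.49 and 5.33 FPKM in ICSI lines. ICSI lines 17, 20 and 21 were above every control line and ICSI line 11 was not, so that the means of 4.33 ± 0.603 and 5.24 ± 0.400 FPKM (SD, n = 4 each) differed by 0.23 (-0.041 to 0.51, exact permutation p = 0.0857). The smallest p that 70 assignments allow is 0.0286.

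Within the title forms, each with 2 lines a group, the ICSI minus control difference ranged from -0.39 for Thy1 to 0.24 for Adgra3 in form 1 and from -0.28 for Mcam to 0.29 for Cd24a in form 2. The sign was the same in both forms for Itga6 (0.067 and 0.14), Cd24a (0.18 and 0.29) and Tspan8 (-0.24 and -0.22). With the title form as a covariate the differences were the same by design, because each form held 2 lines of both groups. The interval for Cd9 narrowed to between -0.49 and 0.22, and that for Thy1 widened to between -1.07 and 0.87. A test of whether the ICSI difference itself differed between the forms called 0 of 12000 genes in limma (0%), with 147 at an unadjusted p under 0.05, and the unadjusted p-values of the 10 members ranged from 0.226 to 0.958.

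**Figure D2:**
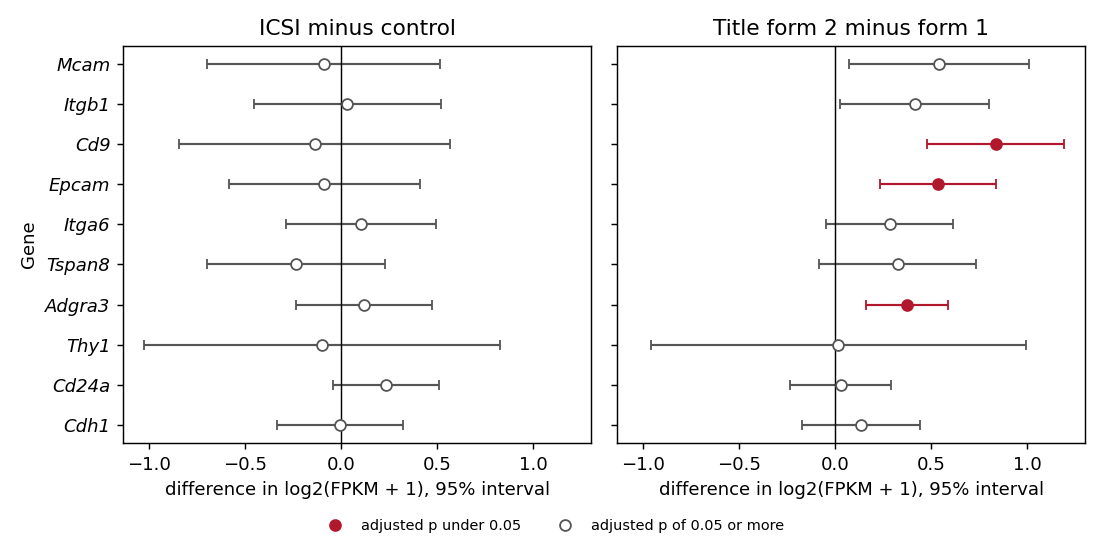
Difference in log2(FPKM + 1) with its 95% interval for each gene, for ICSI minus control (left) and title form 2 minus form 1 with the group as covariate (right); filled red points have a limma adjusted p under 0.05. Every interval on the left includes 0, and on the right those of Cd9, Epcam and Adgra3 are called.

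Some members differed between the title forms. With the group as a covariate, 3 of 10 were called by limma at an adjusted p under 0.05, and all 3, Cd9, Epcam and Adgra3, were higher in title form 2. Of all 12000 genes, 1917 were called (16%), 1226 higher (10.2%) and 691 lower (5.76%) in form 2. Every line of form 2 was above every line of form 1 for the same 3 members and for 1921 genes in all (16%). The difference was above 0 for 10 of 10 members and for 53.6% of all genes tested, with medians of 0.35 and 0.028. Those of Thy1 (0.017) and Cd24a (0.028) were near 0 and changed sign under some alternatives. The members were measured in the same lines, so their signs are not independent.

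Cd9 had the largest difference. Its mean was 64.0 ± 11.9 FPKM in form 1 and 115 ± 20.3 FPKM in form 2 (SD, n = 4 each), 1.80-fold higher, and the log2 difference was 0.84 (95% interval 0.48 to 1.19, limma adjusted p = 0.0162). Both groups showed it, with 0.69 among control lines and 0.98 among ICSI lines. Epcam rose from 71.9 ± 10.7 to 105 ± 14.8 FPKM, a log2 difference of 0.53 (0.23 to 0.84, limma adjusted p = 0.0319). Adgra3 was at 10.9 ± 1.15 FPKM in form 1 and 14.4 ± 1.06 FPKM in form 2, a log2 difference of 0.37 (0.16 to 0.58, limma adjusted p = 0.0320). The Adgra3 call was lost after rescaling to TPM, where the difference was 0.34 (limma adjusted p = 0.0669), and was kept with quantile normalization, where it was 0.32 (0.0443). Without control line 37, ICSI line 11 or ICSI line 17 no member was called, and the limma adjusted p of Cd9 was then up to 0.0621. Without control line 29, 44 or 45, Cd9 was the 1 member called.

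Mcam and Itgb1 had comparable differences but more spread. Mcam was at 231 ± 22.1 FPKM in form 1 and 347 ± 102 FPKM in form 2, a log2 difference of 0.54 (0.074 to 1.01, limma adjusted p = 0.0999). Itgb1 was at 105 ± 9.73 and 142 ± 34.3 FPKM, a log2 difference of 0.41 (0.024 to 0.80, limma adjusted p = 0.123). ICSI line 21 lay within the range of form 1 for both genes and control line 45 for Itgb1, while control line 44 and ICSI line 20 lay above it. Itga6 (0.28, limma adjusted p = 0.199), Tspan8 (0.32, 0.228), Cdh1 (0.13, 0.512), Cd24a (0.028, 0.884) and Thy1 (0.017, 0.981) did not pass. The mean of Thy1 was 8.31 FPKM in both forms.

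**Figure D3:**
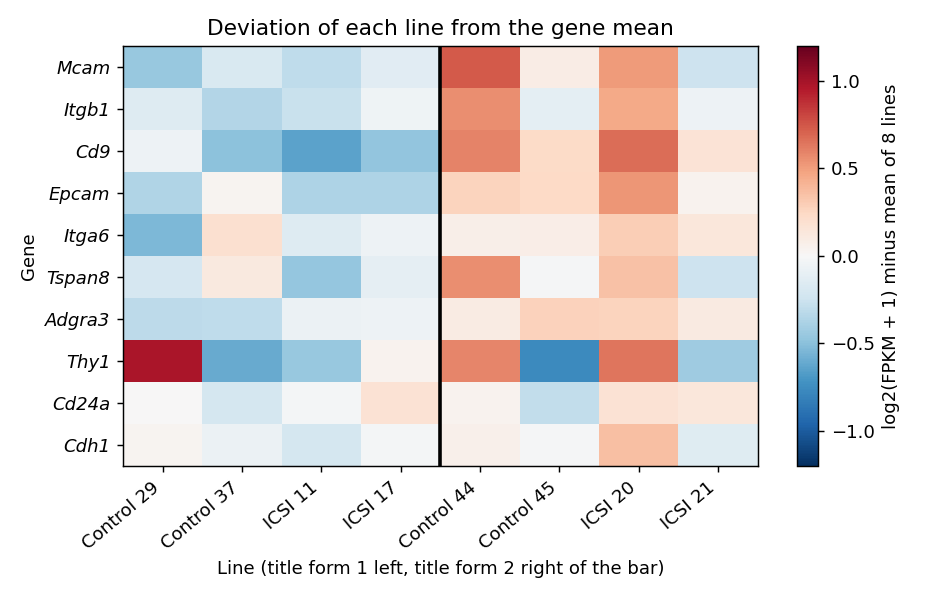
Deviation of each line (columns) from the mean of 8 lines for each gene (rows), in log2(FPKM + 1), red above and blue below the mean; title form 1 is left of the bar. Control line 44 and ICSI line 20 are red in every row, and the Thy1 row follows another order, with control line 29 highest.

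The depth, the germ cell markers and the fibroblast markers were set beside these differences. Form 2 libraries were deeper, at 32350571 to 44269871 reads. The summed germ cell markers were higher in form 2 (1232 to 1531 FPKM) than in form 1 (852 to 1061 FPKM) without overlap, and 9 of the 18 markers were called higher and 2 lower (61.1% in all, beside 16% of all genes tested). Etv5, a GDNF-induced transcription factor, was higher by 1.16 (limma adjusted p = 0.00792), Gfra1, the GDNF co-receptor, by 0.67 (0.0216), Dazl by 0.52 (0.0173) and Ddx4 by 0.37 (0.0385), the last pair being germ cell RNA-binding proteins. Zbtb16, the PLZF factor of undifferentiated spermatogonia, differed by 0.018 (0.942), and Bcl6b, the third most abundant marker, by 0.74 (0.121). The markers called lower, Pou5f1 (-0.72, limma adjusted p = 0.0286) and Utf1 (-1.37, 0.0203), are named because their count was small, after their values had been seen. The part of depth and of these markers in the differences of Cd9, Epcam and Adgra3 was not tested. In bulk RNA, fewer cells of a type cannot be told apart from less RNA per cell.

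Fibroblast markers varied between lines more than between groups or forms. Their sum was 1380 FPKM in control line 29 and 1305 FPKM in line 44, followed by ICSI lines 20 (921 FPKM), 17 (621), 21 (546) and 11 (436) and by control lines 37 (415) and 45 (374). Thy1 took nearly the same order, from 15.8 FPKM in control line 29 to 3.99 FPKM in control line 45, and ICSI line 20 and control line 44 alone exchanged places. Thy1 also had the widest range of the 10 genes, 3.95-fold from the lowest to the highest line. Of the 23 fibroblast markers tested, 0 were called in either comparison. Their median difference was -0.22 for ICSI minus control, with 1 of 23 above 0, and 0.043 for title form 2 minus form 1. Fn1, Sparc, Vim and Col1a1 were the most abundant, at means of 95.3, 88.0, 67.7 and 65.0 FPKM.

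The other members took other orders, although the 3 lines highest in fibroblast markers also had the 3 highest Cdh1 values (3.79, 2.88 and 2.82 FPKM, with the next at 2.69 FPKM). Control line 29, highest in fibroblast markers, had the lowest Mcam (202 FPKM), the lowest Itga6 (11.9 FPKM) and the lowest Adgra3 (9.90 FPKM) of all lines. Control line 44 and ICSI line 20, next in fibroblast markers, had the 2 highest values of Mcam, Itgb1, Tspan8, Cd9, Epcam and Cdh1. The 3 lines highest in fibroblast markers were also left out together, an alternative chosen after seeing the data. Title form 2 then held only control line 45 and ICSI line 21, and title form 1 held control line 37 and ICSI lines 11 and 17. A smaller p-value from so few lines does not mean a stronger difference. Cd9 then differed between the forms by 0.73 (limma adjusted p = 0.00881), beside 0.84 with all lines. Epcam differed by 0.32 (limma adjusted p = 0.0332), beside 0.53, and Adgra3 by 0.35 (0.0691), beside 0.37. The differences of Mcam (0.10), Itgb1 (0.15) and Tspan8 (-0.037) were also smaller than with all 8 lines. For ICSI minus control, Thy1 was then at 0.41 and Cd24a at 0.35, with unadjusted p-values of 0.0671 and 0.0295 and an adjusted p of 0.975 for both in limma. The part of fibroblast RNA in the values of Thy1 was not tested.

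**Figure D4:**
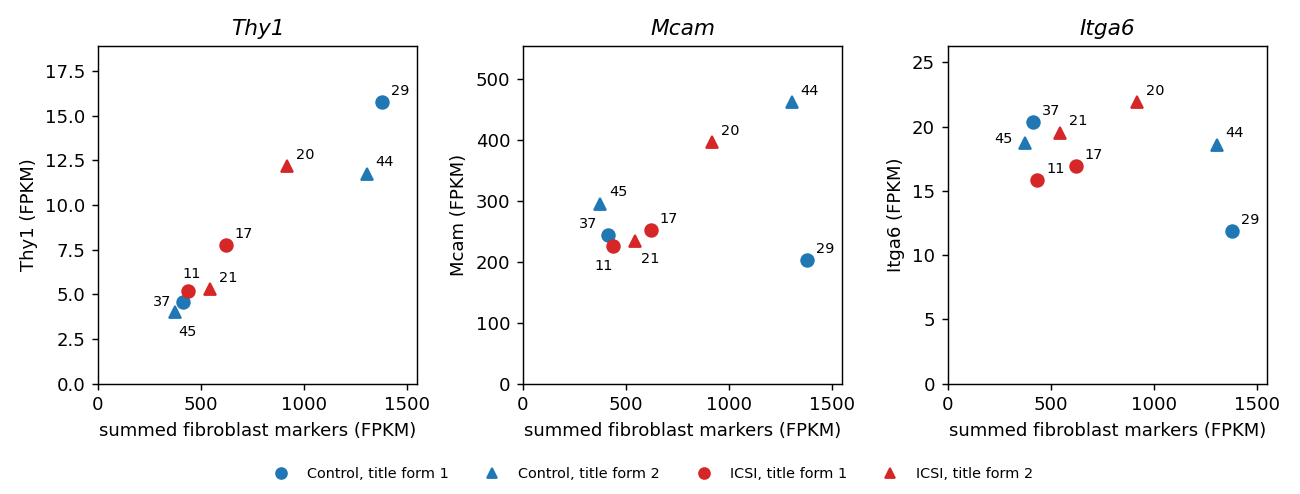
Thy1, Mcam and Itga6 (FPKM) against the summed FPKM of 25 fibroblast markers, with 1 point per line numbered as in the titles; blue is control, red ICSI, circles title form 1 and triangles title form 2. The 3 lines with a sum of 921 FPKM or more have the 3 highest Thy1 values, while control line 29, with the highest sum, has the lowest Mcam and Itga6.

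Genes with the most similar profile were sought for the 3 members that varied most, by the root mean square difference of centred log2(FPKM + 1) over the 8 lines among 12000 genes. For Thy1 these were Cdh11 (0.093), Layn (0.10) and Srpx2 (0.11), where Cdh11 is a cadherin of mesenchymal cells. For Cd9 they included Tmem59 (0.081) and Rab21 (0.11), and for Mcam they were Extl2 (0.090), Lpar3 (0.092) and Lpin1 (0.10). These values describe the profiles over 8 lines that share their libraries and their title forms.

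Other genes of the same pathways were examined from lists that excluded the members. In the ICSI comparison, 0 of the 90 genes tested from these lists were called by limma. An unadjusted p under 0.05 was found for 2 of them, the laminin chain Lama3 with a log2 difference of -0.71 and the tetraspanin Tspan13 with one of 0.28. The limma adjusted p was 1.0 for both. In the comparison of title forms 16 were called (17.8%), a share near the 16% of all genes tested, so the genes below are a description of the lists.

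Among 10 other integrin subunits tested, 1 was called higher and 1 lower in form 2 (20%, beside 16% of all genes), the leukocyte integrin chain Itgb2 (0.72, limma adjusted p = 0.0383) and Itgb7 (-0.44, 0.0291). Itgb5 (26.5 FPKM) and Itga5 (15.3 FPKM), the most abundant, did not pass. Of 15 adaptors and kinases that join integrins to actin, the talins Tln1 (-0.47, limma adjusted p = 0.0209) and Tln2 (-0.42, 0.0364) were lower (13.3% of the list), while Actn4 (41.3 FPKM) and Ilk (26.8 FPKM) did not pass. Of 9 laminin and nidogen chains, which make the matrix that integrins bind, Nid2 was higher, from 58.4 ± 7.04 to 111 ± 13.5 FPKM (SD, n = 4 each; log2 difference 0.91, limma adjusted p = 0.00828), which is 11.1% of the list, and Nid1 (56.2 FPKM) did not pass.

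Of 17 other tetraspanins, Cd82 (1.08, limma adjusted p = 0.0126) and Tspan3 (0.52, 0.0160) were higher (11.8% of the list), and Cd151 (44.3 FPKM) and Tspan14 (39.0 FPKM), the most abundant, did not pass. The median tetraspanin difference was 0.12. Of 7 partners of tetraspanins and EpCAM, the membrane proteases Adam10 (0.61, limma adjusted p = 0.0162) and Adam17 (0.48, 0.0201) were higher (28.6%). None of the 10 cadherins and catenins was called. Ctnnb1, beta-catenin, which binds the tail of E-cadherin, was at a mean of 137 FPKM and Ctnna1 at 40.9 FPKM, far above Cdh1 itself.

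Of 13 other immunoglobulin superfamily adhesion molecules 3 (23.1%) were higher, Cadm1 (0.47, limma adjusted p = 0.0153), Nectin2 (0.70, 0.0225) and Nectin3 (0.53, 0.0319), and the junctional molecules F11r (34.0 FPKM) and Jam3 (25.0 FPKM) did not pass. The relative of Adgra3 that was tested, Adgra2, was at 1.76 FPKM and did not pass, and Adgra1 was at 0.029 FPKM. Of 8 other receptors of spermatogonia, 3 were higher and 1 lower (50%), namely the GDNF receptor chains Gfra1 (0.67, limma adjusted p = 0.0216) and Ret (0.66, 0.0371), Notch1 (0.71, 0.0372) and Kit (-0.80, 0.0351), the receptor gained on differentiation. Nectin3 and Notch1 are named to complete counts, after their values had been seen. Gfra1 and Ret also belong to the germ cell markers above, and Kit to the markers of differentiating spermatogonia and meiosis below. The called shares of these lists therefore count some of the same genes and are not independent.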

How the data were processed

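The authors trimmed single reads with cutadapt 3.4, aligned them to mm10 with STAR 2.7.9a, counted them per gene with HTSeq 0.13.5 and deposited FPKM values. Per the labels DESeq2 1.30.1 was also used. The table's columns of their own comparison, a log2 fold change and an adjusted p, were not used. Low FPKM values were whole multiples of the value of 1 read, which gave whole reads (tolerance 0.01) for all 12000 genes tested. One read per kilobase was worth 0.0227 to 0.0401 FPKM. Positions came from GENCODE M21, which held 30869 of the 31010 genes, while the authors counted on M25.

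Genes averaging 1 FPKM or more were tested with limma 3.58.1 in R 4.3.3 (lmFit and eBayes with trend) on log2(FPKM + 1). Tests were two-sided with Benjamini-Hochberg adjustment over all genes tested and a threshold of 0.05. A pseudocount of 1 understates the change of low genes. Fits were tested on simulated data. The ICSI comparison had no covariate, and the title forms were compared with the group as covariate. Title form was read from the sample titles.

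The 10 members and the gene lists were chosen with earlier results of these data known. Named from each pathway list were the 2 genes with the highest mean and up to 2 with the smallest p among those called, from each marker list up to 4 genes with the highest mean together with Ddx4, Zbtb16, Gfra1 and Etv5, and for the 3 most variable members the 3 nearest profiles, of which 1 is not reported here. Amh, Fshr, Cyp17a1 and Ptprc were named besides, as defining markers at low values, after their values had been seen. Alternatives were other pseudocounts (0.1 and 0.01), no filter or a minimum mean of 5 FPKM, quantile normalization, TPM, limma-voom on the recovered reads, the title form as covariate, and leaving out each line.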

Additional observations from a re-analysis of the deposited data

Results flagged for a closer look

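The Mcam level of ICSI line 20, 396.5 FPKM, lay far above those of ICSI lines 11, 17 and 21 (225 to 252 FPKM). Its gap to the nearest of these was 0.843 of the range of the 4 lines, above Dixon's critical value at the 95% level. In all, 24 groups of 4 values were examined and this was the only value set apart, where chance gives about 1 in 20. ICSI line 20 also had the highest summed fibroblast markers of the ICSI lines (921 FPKM) and the highest Cd9, Epcam and Itgb1 among them, and control line 44, of the same title form, had 462 FPKM. The part of these in the value was not tested.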

How the results depend on the processing

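No paired analysis was possible because the groups share no line numbers. The count for ICSI against control was 0 under each alternative except without a filter, where it was 1 (limma adjusted p = 0.0389). The count between title forms, 1917, was 1255 without a filter and 210 (without ICSI line 11) to 2691 (without ICSI line 21) when single lines were left out (control lines 29, 37, 44 and 45 gave 1044, 287, 675 and 1061, ICSI lines 17 and 20 gave 429 and 1209). Members called, 3, ranged from 0 to 4 and listed genes called, 16, from 1 to 22 when single lines were left out. Of the calls between forms 64.0% were higher in form 2, and 51.2% under quantile normalization. Adgra3 lost its call under 9 alternatives, Epcam under 7 (without a filter, limma adjusted p = 0.0660) and Cd9 under 3, and Mcam was called without ICSI line 21 (0.0234).

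Small differences changed sign. Thy1 between forms was -0.018 with quantile normalization, -0.037 in TPM, -0.051 with limma-voom and -0.20 with the 3 lines left out, and Cd24a was -0.021 in TPM and -0.0024 with the 3 lines left out, where Tspan8 was -0.037. For ICSI minus control, Cdh1 was 0.0031 in TPM, and Itga6 was -0.16 and Thy1 0.41 with the 3 lines left out. With single lines left out, the ICSI difference ranged from -0.059 to 0.18 for Itga6, -0.11 to 0.23 for Itgb1, -0.38 to 0.053 for Cd9, -0.28 to 0.022 for Epcam, -0.13 to 0.062 for Cdh1, -0.37 to 0.21 for Thy1 and -0.27 to 0.14 for Mcam, and the form difference from -0.25 to 0.39 for Thy1 and -0.030 to 0.11 for Cd24a. The causes were not tested. The interaction could not be fitted with the 3 lines left out. At least 255 reads stood behind each value of a member.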

Other observations

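Markers of other testis cells were low. Of 8 Sertoli cell markers, 3 had a mean of at least 1 FPKM and the list summed to 5.55 to 9.14 FPKM over the lines. Of these, Sox9 (mean 2.18 FPKM) was called higher in title form 2 (log2 difference 1.03, limma adjusted p = 0.0242) and Wt1 (2.08 FPKM) lower (-0.82, 0.0150), Rhox5 (1.07 FPKM) did not pass, while Amh and Fshr were at means of 0.036 and 0.0015 FPKM. Of 6 Leydig cell markers, Star alone (1.24 FPKM) reached 1 FPKM, the list summed to 0.669 to 1.89 FPKM, and Cyp17a1 was listed at 0 in all 8 lines. The 6 leucocyte and macrophage markers summed to 5.89 to 19.4 FPKM, most of it Cd68 (7.76 FPKM), with Ptprc at 0.089 FPKM. The 6 endothelial markers summed to 3.14 to 9.62 FPKM, and Kdr was higher in title form 2 (0.93, limma adjusted p = 0.0224).

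Markers of differentiating spermatogonia and meiosis summed to 367 to 476 FPKM over the lines. Of 10 tested, Sycp3 (0.64, limma adjusted p = 0.0173) and Sycp1 (0.55, 0.0263) were higher in title form 2, Kit was lower, and the likewise abundant Sohlh1 (-0.41, 0.0867) and Sohlh2 (0.29, 0.126) did not pass. The called share was 30%, beside 16% of all genes tested, and 0 were called between ICSI and control lines.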
